A study of Mus musculus with 2 samples.

Results

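The insulin receptor pathway and the glucose transporters it acts on were followed through 10 genes in RNA from adipocyte-derived microvesicles and from their donor adipocytes: Insr, Irs1, Irs2, Pik3r1, Pdpk1, Akt1, Akt2, Slc2a4, Slc2a1 and Pde3b. Every array probe whose gene name equals one of these symbols was taken, whatever its signal. That gave 18 of the 41174 distinct probes on the array, for 9 of the 28786 gene names; Irs2 was not analysed here. Of these, 16 probes of 8 genes were well above background in at least 1 RNA on both arrays and were tested, among 18117 tested probes in all. The remaining 2 are the single Insr probe and 1 of the 2 Pde3b probes.

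The donor cells belonged to 3T3-L1, an established line of mouse preadipocytes that stores fat after hormonal induction. They were kept in high-glucose DMEM with 10% FCS, and were induced by 3-isobutyl-1-methylxanthine (IBMX) at 0.5 mM together with dexamethasone at 0.25 µM and insulin at 10 µg/ml. Both RNAs of the comparison therefore come from cells that had received insulin, and no culture induced without it was compared. The microvesicles (ADMs, membrane particles shed into the medium) were spun out of conditioned medium on day 11 from induction, and the cells were harvested on the same day. Total RNA of the ADMs and of the donor cells, 250 ng each, was amplified into dye-labelled cRNA and hybridised together on a 2-colour mouse array. There were 2 such arrays, 1 for each replicate that the labels call biological. The ADM RNA carried Cy5 on array 1 and Cy3 on array 2, with the cell RNA in the other dye. Nothing in the labels says that the replicates came from separate cultures, so p-values measure only the spread between 2 arrays, which may be technical. Directions follow the dye labels: ADM RNA and cell RNA mean the RNAs that the labels name so.

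As background, insulin binds its receptor, a tyrosine kinase that phosphorylates adaptor proteins of the IRS family, and these recruit phosphatidylinositol 3-kinase (PI3-kinase) to the membrane. The lipid it makes draws in the kinases PDK1, encoded by Pdpk1, and AKT, and AKT activity brings vesicles holding the glucose transporter GLUT4 to the cell surface. In fat cells the same branch activates the phosphodiesterase PDE3B, which lowers cyclic AMP and restrains lipolysis. Differentiating 3T3-L1 cells are a standard model of this pathway.

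The members' ratios, ADM over cell after loess, went in both directions. Loess is a correction that sets each probe against probes of similar brightness. Of the 16 tested probes, 4 were higher in the ADM RNA at an adjusted p under 0.05 (limma, Benjamini-Hochberg over all tested probes), where 5.53% of all tested probes were. They belong to Slc2a4, Irs1, Slc2a1 and Pdpk1. Lower were 2 of 16, where 10.9% of all tested probes were: a probe of Pdpk1, and a probe of Akt1 whose sign turned under another normalization, median centring. The other 10 did not pass. At least 2-fold higher on both arrays were 2 of the 16 probes (1.11% of all tested probes) and at least 2-fold lower were 2 (6.48%). The median log2 ratio of the 16 was 0.28, beside 0.07 over all tested probes. With 1 value per gene, that of the brightest probe, 3 of the 8 tested members were higher (5.79% of the 13186 genes tested) and 2 were lower (12% of them), with a median of 0.17 beside 0.04 over all genes. These are counts over few members, and no list was tested as a list.

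**Figure D1:**
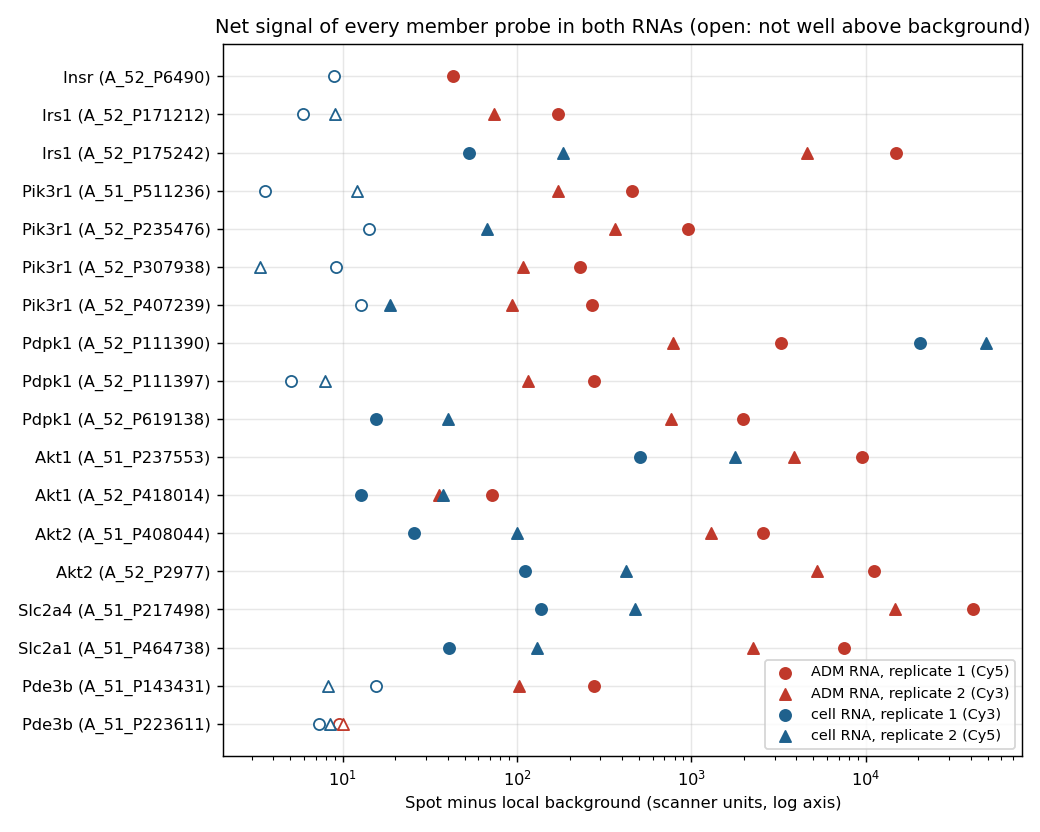
Net signal (spot mean minus local background, scanner units, log axis) of each of the 18 member probes, for the ADM RNA (red) and the cell RNA (blue) on array 1 (circles) and array 2 (triangles); open symbols were not well above background. The ADM symbols lie right of the cell symbols for most probes, and the Pdpk1 probe A_52_P111390 is the one where both cell symbols lie far to the right; Insr has no kept spot on array 2.

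In net signal, the ADM channel was the brighter one on these arrays as a whole: its 99th percentile was 35907 scanner units on array 1 and 18424 on array 2, against 514 and 2394 in the cell channel. The share of all probes well above background was 49.2% and 46.7% in the ADM RNA, and 23.8% and 39.9% in the cell RNA. Among the 18 member probes, 16 were well above background in the ADM RNA on both arrays and 9 in the cell RNA on both. The ratios therefore describe the make-up of each RNA and not an amount per cell, per vesicle or per RNA. For the same reason the ratio of each tested member probe is also given with median centring, which keeps the trend of ratio with brightness, and from the processed signals of the scanner software. Median centring placed the middle of all tested probes at 2.04 instead of 0.07, so a positive value there is not by itself above the other probes. On the processed signals the middle of the tested probes also lay above 0, so the same holds there.

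The defining markers of the labelled cell type were present. Of 12 adipocyte markers, 9 were well above background in the ADM RNA on both arrays and 8 in the cell RNA; the 3 others, Adipoq, Cfd and Cidec, had spots left out for a flag but were above background in both RNAs in the spots as deposited. Of 7 preadipocyte or fibroblast markers, 7 and 5 were seen. By the brightest probe, 3 of 9 tested adipocyte markers were lower and 0 higher after loess in limma. Their median was -0.59, and 1 was higher at an unadjusted p under 0.05. Of 7 preadipocyte markers, 3 were higher and 0 lower, also at an unadjusted p under 0.05, with a median of 0.35. Over all 13186 genes tested, 5.79% were higher and 12% lower, with a median of 0.04. With median centring the medians of the 2 lists were 4.19 and 5.02, beside 2.34 over all genes tested. Loess did not bring the brightest probes to 0: at a mean log2 signal of 13 to 13.5 the median of tested probes was -1.29. On the processed signals, where the middle of the tested probes lay above 0, the 3 lower adipocyte markers, Lpl, Plin1 and Pnpla2, were at -1.17, -0.02 and -0.05. There the 3 higher preadipocyte markers, Col1a1, Postn and Pdgfra, were at 2.73, 2.83 and 4.20. Pdgfra met the filter through the ADM RNA alone, which favours a higher ADM reading, so its call adds no separate support. Other probes of these markers did not all follow after loess: the second Pnpla2 probe was at 0.41 and the second Pdgfra probe at 0.11. The 3 Col1a1 probes ranged from 0.06 to 2.14. Lpl, Plin1 and Postn had 1 tested probe each. The summed net signal of the tested adipocyte markers was 428165 to 959385 in the ADM RNA and 9888 to 58323 in the cell RNA, and that of the preadipocyte markers 74256 to 196097 and 867 to 3036. Their part in the members' ratios was not tested. No macrophage marker (of 6) and no endothelial marker (of 5) was seen on both arrays among kept spots, in either RNA; in spots as deposited, Cd68 was so in the ADM RNA and Cd14 in both. Skeletal muscle, the other tissue that is rich in GLUT4, had 1 of 5 markers seen in the ADM RNA, Acta1, and 0 in the cell RNA; hepatocyte markers gave 2 and 1 of 5.

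The receptor gene Insr was close to background. Its probe A_52_P6490 (mm7, chr8:3058920-3058979, minus strand) gave a net signal of 43.0 in the ADM RNA and 8.92 in the cell RNA on array 1, and only the former was well above background. Its spot on array 2 carried the flag of an outlying local background and was left out. As deposited it read 15.9 and 26.3, and both readings were called well above background. The brighter RNA was thus the ADM one on array 1 and the cell one in the omitted spot. The log2 ratio after loess was 0.02 on array 1. With such spots kept, the mean over both arrays was -0.02 ± 0.04 (SD, n = 2; limma adjusted p = 0.642). The level of the receptor transcript in either RNA cannot be placed beyond this.

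Irs1, the adaptor that couples the receptor to PI3-kinase, was higher in the ADM RNA at the probe A_52_P175242 (chr1:82447810-82447869, minus strand), the one nearer the 3′ end of the gene. Its net signal in the ADM RNA was 14817 on array 1 and 4606 on array 2. In the cell RNA it was 53.2 and 182.8. All 4 readings were well above background, and the ADM readings exceeded the cell readings on both arrays. After loess the log2 ratio was 1.35 and 1.25, a mean of 1.30 ± 0.07 (SD, n = 2) or 2.46-fold (limma adjusted p = 0.0137), above 99.3% of tested probes. A_52_P175242 is annotated to a cDNA entry and not to a RefSeq transcript, unlike the other Irs1 probe. Whether both probes report the same transcript was not tested.

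The other Irs1 probe, A_52_P171212 (chr1:82451682-82451741), lies 3872 bases upstream in the gene. It read 172 and 73.9 in the ADM RNA, and 5.91 and 9.08 in the cell RNA, where it was not well above background on either array. Its log2 ratio after loess was 0.19 and 0.20 and did not pass (limma adjusted p = 0.282). The at-least fold of 1.14 is this same reading and no tested minimum: with outlying backgrounds kept the log2 ratio was 0.01. On the processed signals, which used a surrogate value in place of its cell reading on array 1, it did pass (limma adjusted p = 0.0167). Since the upstream ratio is only a bound, the gap between these 2 probes cannot be sized; after loess the upstream probe read 1.11 lower on the log2 scale, and on the processed signals the sign of that difference turned, to 0.87. The upstream and the 3′ probe stood at 2.56 and 1.69 on the processed signals, and at 1.16 and 5.39 with median centring, where the upstream one lies under the middle of the tested probes.

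Pik3r1 encodes the regulatory p85α subunit of PI3-kinase, and none of its 4 probes passed in limma after loess (1 had an unadjusted p under 0.05), while 2 passed on the processed signals. In the ADM RNA the 4 read between 228 and 961 on array 1 and between 93.5 and 364 on array 2. In the cell RNA they read between 3.56 and 14.2 on array 1, none well above background, and between 3.33 and 67.0 on array 2, where A_52_P235476 and A_52_P407239 were. The 3′-most probe, A_52_P235476 (chr13:98790149-98790208, minus strand), gave log2 ratios of 0.17 and -0.46, a mean of -0.14 ± 0.44 (SD, n = 2; limma adjusted p = 0.618), so the arrays did not share a sign. The 3 probes upstream of it gave means of 0.37 for A_51_P511236 (at least 1.30-fold), 0.28 for A_52_P307938 (at least 1.21-fold) and -0.09 for A_52_P407239, with limma adjusted p-values of 0.0993, 0.280 and 0.561. The bounds stand for the 2 probes seen in the ADM RNA alone, and are their readings after loess, not tested minima. With outlying backgrounds kept, the log2 ratio of each of these 2 probes was 0.02. Both of those passed on the processed signals, which used a surrogate value for their cell reading on array 1: A_51_P511236 at 2.72 (limma adjusted p = 0.0197) and A_52_P307938 at 2.84 (limma adjusted p = 0.0157). With median centring they were at 2.16 and 1.52, and with a normexp offset of 10 A_51_P511236 passed too, at 0.95 (limma adjusted p = 0.0411). The negative means of A_52_P235476 and A_52_P407239 became positive on the processed signals, at 0.51 and 0.89, and with median centring, at 2.54 and 1.34. Relative to the median of tested probes they stood at -0.18 and 0.20 on the processed signals. With median centring they stood at 0.49 and -0.71 relative to that median.

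Pdpk1, which encodes the kinase that phosphorylates AKT in its activation loop, had the most discordant probes of any gene with several tested probes. Its probe A_52_P111390 (chr17:22287682-22287741, minus strand) was the only member probe whose net signal was higher in the cell RNA on both arrays. It read 3246 on array 1 and 788 on array 2 in the ADM RNA, against 20513 and 49034 in the cell RNA. The log2 ratio after loess was -10.14 and -9.33, a mean of -9.74 ± 0.58 (SD, n = 2; limma adjusted p = 0.000976), at the 0.0166th percentile of tested probes. It was -9.11 on the processed signals and -4.58 with median centring, so the direction held with every one of the 3 while the size did not.

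The 2 other Pdpk1 probes went the other way. The 3′-most probe, A_52_P619138 (chr17:22260482-22260541), read 1969 and 760 in the ADM RNA and 15.5 and 40.1 in the cell RNA, all well above background. Its log2 ratio was 0.51 and 0.67, a mean of 0.59 ± 0.12 (SD, n = 2; limma adjusted p = 0.0480), and it was 1.06 on the processed signals and 3.68 with median centring. The probe A_52_P111397 (chr17:22288087-22291722) has coordinates that span 3636 bases, so it bridges an intron. It read 276 and 116 in the ADM RNA, and 5.03 and 7.93 in the cell RNA, where it was not well above background. Its mean log2 ratio was 0.30 ± 0.05 (SD, n = 2), at least 1.23-fold, and did not pass after loess (limma adjusted p = 0.142). With outlying backgrounds kept the probe was at 0.02, so that fold is no tested minimum. It passed on the processed signals, at 2.41 (limma adjusted p = 0.0197), with a surrogate value for its cell reading on array 1. It also passed with a normexp offset of 10, at 0.81 (limma adjusted p = 0.0340), and stood at 1.66 with median centring.

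The cell-bright Pdpk1 probe lies between the other 2 along the gene. It is 27200 bases upstream of the 3′-most probe, and the bridging probe is 27605 bases upstream of that same 3′-most probe, so the bridging probe is the nearer of the 2. Relative to A_52_P111390, the 3′-most probe was higher by 10.33 on the log2 scale (10.65 and 10.00), with a limma adjusted p of 5.62e-08 over 4931 differences between probes of a gene, of which 22.6% passed. That difference was 10.16 on the processed signals (limma adjusted p = 0.0161) and 8.25 with median centring. The Pdpk1 probes were known from these data to disagree before their difference was tested, so these p-values add no independent support. The bridging probe, whose ratio is a bound, read 10.04 higher after loess. Among 3850 genes with several tested probes, the median range of log2 ratios over a gene's probes was 0.29, and 160 genes (4.16%) had a range over 2; the Pdpk1 range was the largest of all. The ratio of Pdpk1 as a gene thus depends on the probe: its brightest probe gives -9.74 and the median of its probes 0.30. What sequence A_52_P111390 captures in the cell RNA was not tested, and no direction is drawn for the gene.

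**Figure D2:**
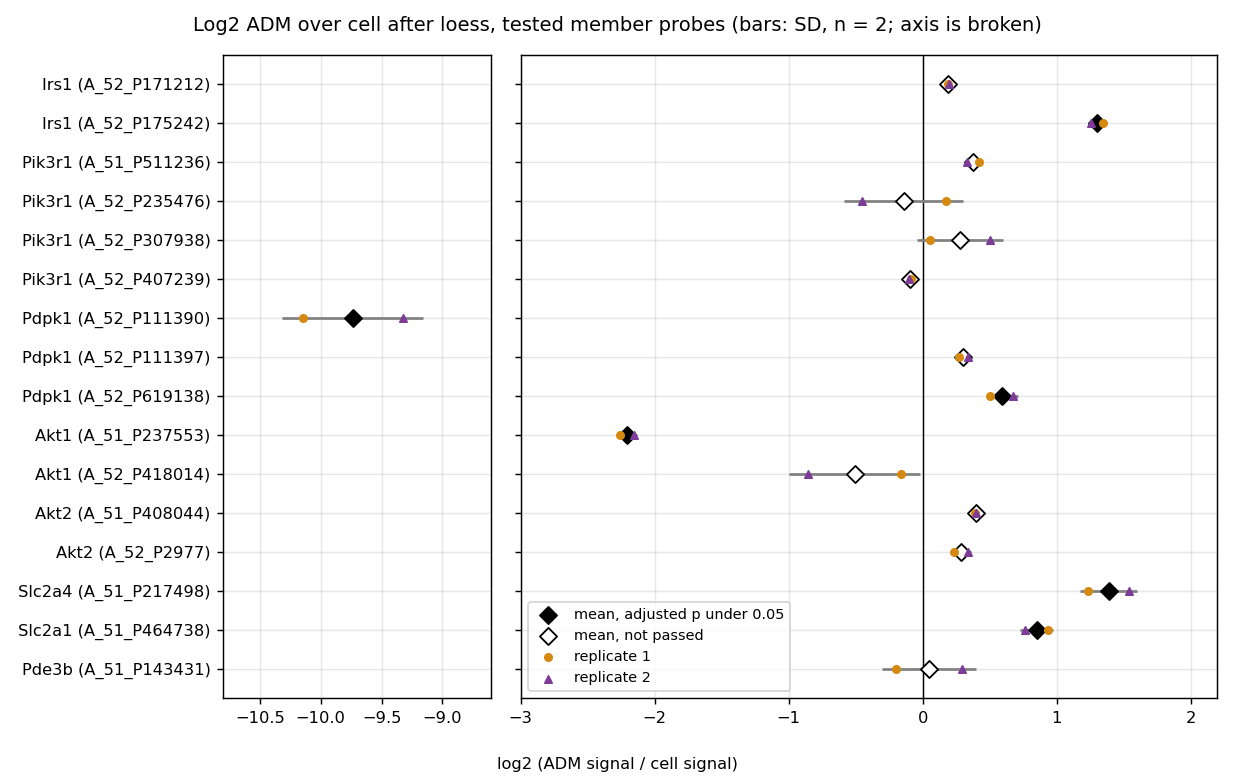
Log2 of ADM over cell signal after loess for the 16 tested member probes, with array 1 (circles), array 2 (triangles), their mean (diamonds, filled where the limma adjusted p is under 0.05) and bars of ± SD (n = 2); the axis is broken. Slc2a4 and Irs1 A_52_P175242 stand furthest to the right, at means of 1.39 and 1.30, and Pdpk1 A_52_P111390 and Akt1 A_51_P237553 furthest to the left, at -9.74 and -2.21.

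Of the 2 AKT genes, Akt1 was lower in the ADM RNA after loess at 1 of its 2 probes, a sign that turned with median centring, and Akt2 passed at neither of its probes. AKT1 and AKT2 are close paralogs among serine/threonine kinases, and AKT2 is the one most often tied to glucose uptake in fat and muscle. Akt1 was represented by A_51_P237553 (chr12:110178813-110178872, minus strand), which is printed on 10 spots. It read 9529 on array 1 and 3879 on array 2 in the ADM RNA, and 504 and 1769 in the cell RNA, as means of the kept spots (10 and 8). The coefficient of variation over those spots lay between 6.26% and 10.7%. Net signal was higher in the ADM RNA on both arrays, but by less than for probes of similar brightness. After loess the log2 ratio was negative, -2.26 and -2.15, with a mean of -2.21 ± 0.07 (SD, n = 2; limma adjusted p = 0.00509), or 4.62-fold lower. The processed signals gave -2.18 (limma adjusted p = 0.0188). With median centring the sign turned to 2.28, beside a median of 2.04 over all tested probes there. Relative to the median of tested probes on each array, it stood at 0.96 on array 1 and -0.47 on array 2.

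The upstream Akt1 probe, A_52_P418014 (chr12:110187243-110196509, bridging introns over 9267 bases), was dim, at 72.2 and 35.5 in the ADM RNA and 12.8 and 37.8 in the cell RNA. On array 2 the cell reading was slightly the higher one. Its log2 ratio was -0.16 and -0.85, a mean of -0.51 ± 0.49 (SD, n = 2; limma adjusted p = 0.171), while the processed signals gave -2.06 (limma adjusted p = 0.0199) and median centring 0.15. After loess this probe was 1.70 above the brighter one (limma adjusted p = 0.000852). On the processed signals the difference was 0.12 (limma adjusted p = 0.835), and with median centring it was -2.13. That the Akt1 probes disagree was known from these data beforehand, so the p-values of their difference add no independent support.

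Akt2 was well above background in both RNAs at both of its probes. The brighter one, A_52_P2977 (chr7:24558143-24558202, plus strand), read 11175 and 5246 in the ADM RNA and 111 and 420 in the cell RNA. Its mean log2 ratio was 0.28 ± 0.07 (SD, n = 2) and did not pass (limma adjusted p = 0.163). The other, A_51_P408044 (chr7:24556257-24556397), read 2591 and 1298 against 25.7 and 99.8, with a mean of 0.40 ± 0.006 (SD, n = 2; limma adjusted p = 0.0862). The probes differed by 0.11, less than the test resolved (limma adjusted p = 0.690). On the processed signals they were at 0.31 and 0.66 and also did not pass. Both values lay under the median of tested probes there, at -0.38 and -0.03 relative to it. With median centring the 2 probes were at 4.47 and 3.79. With an intensity-trended variance prior A_51_P408044 did pass (limma adjusted p = 0.0421).

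Set against each other within an array, the brightest probes of Akt2 and Akt1 differed by 2.49 in log2 ratio on array 1 and by 2.49 on array 2. The gap was 2.50 on the processed signals and 2.19 with median centring, so its sign did not depend on which of the 3 was used. It is given without a test, since the pair was set side by side with earlier results known. The upstream Akt1 probe, at -0.51 after loess, lay closer to the Akt2 probes on that scale.

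Slc2a4 encodes GLUT4, the insulin-responsive glucose transporter of fat and muscle, and its probe had the highest ratio of the members after loess and with median centring. On the processed signals 5 member probes that were not well above background in the cell RNA on either array stood above it, at 1.80 to 2.84. A_51_P217498 (chr11:70024145-70024204, minus strand) is printed on 10 spots. In the ADM RNA it read 41191 on array 1, over 7 kept spots, and 14753 on array 2, over 10. In the cell RNA it read 137 and 472, with a coefficient of variation over spots of 8.23% to 10.8% in all 4 readings. The ADM readings exceeded the cell readings on both arrays. After loess the log2 ratio was 1.24 and 1.54, a mean of 1.39 ± 0.21 (SD, n = 2) or 2.62-fold higher (limma adjusted p = 0.0160), above 99.5% of tested probes. The processed signals gave 1.76 (limma adjusted p = 0.0215) and median centring 5.97, at the 99.8th percentile of tested probes. The 3 spots left out on array 1 for their local background read 34226 to 43720 in the ADM RNA and 108 to 146 in the cell RNA.

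Slc2a1 encodes GLUT1, the transporter that serves basal glucose uptake in most cells. Its probe A_51_P464738 (chr4:118513698-118513757, plus strand) read 7494 and 2252 in the ADM RNA and 40.9 and 129 in the cell RNA. All 4 were well above background, and the ADM readings were the higher on both arrays. The log2 ratio after loess was 0.94 and 0.76, a mean of 0.85 ± 0.12 (SD, n = 2) or 1.80-fold higher (limma adjusted p = 0.0277), above 97.3% of tested probes. It was 1.29 on the processed signals (limma adjusted p = 0.0483) and 4.67 with median centring.

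Both transporters were thus on the higher side with each of the 3 kinds of processing. Within an array, the log2 ratio of Slc2a4 exceeded that of Slc2a1 by 0.30 on array 1 and by 0.78 on array 2, a mean of 0.54 ± 0.34 (SD, n = 2). That gap has the same sign on both arrays, but its spread is of the order of its size, and it was not tested.

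Pde3b, the phosphodiesterase that insulin activates in fat cells, did not pass after loess. Its probe A_51_P143431 (chr7:110452250-110452309, plus strand) read 276 and 103 in the ADM RNA, and 15.6 and 8.28 in the cell RNA, where it was not well above background. The log2 ratio was -0.20 on array 1 and 0.29 on array 2, a mean of 0.05 ± 0.35 (SD, n = 2; limma adjusted p = 0.855), so the arrays did not share a sign and no fold is given. With median centring it was 1.48. On the processed signals the probe was at 1.80 and passed (limma adjusted p = 0.0265), so the call differed between the 2 kinds of processing. The second probe filed under Pde3b, A_51_P223611 (chr7:110451912-110451971), lies on the minus strand, opposite to the gene. It read between 7.31 and 9.97 in both RNAs, was not well above background on either array, and was not tested.

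**Figure D3:**
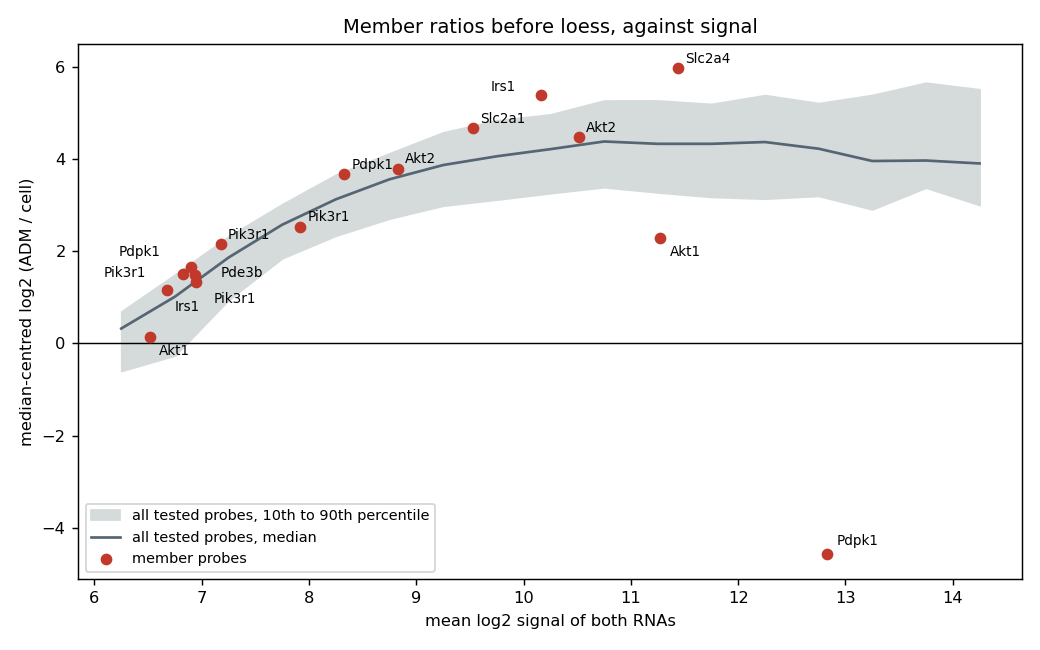
Median-centred log2 of ADM over cell signal (vertical) against the mean log2 signal of both RNAs (horizontal) for the 16 tested member probes (points), over the median (line) and the 10th to 90th percentile (band) of all tested probes in bins of brightness with at least 20 probes. Slc2a4 (5.97) and the bright Irs1 probe (5.39) lie above the band, Akt2 (4.47) near the line, and Akt1 (2.28) and Pdpk1 (-4.58) below the band.

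The plot of ratio against brightness shows what the loess zero stands for. Before loess, the median-centred ratio of the tested probes had a median that rose from 0.32 in the dimmest bin to 4.38 in the bin that holds the brighter Akt2 probe. Slc2a4, at 5.97, compares with a median of 4.33 and a 90th percentile of 5.27 among the 277 probes in its bin of brightness. Akt1 lies in the same bin at 2.28, below that bin's 10th percentile of 3.28. The brighter Akt2 probe, at 4.47, sits beside the median of 4.38 among 435 probes. The bright Irs1 probe, at 5.39, exceeds the 90th percentile of 4.97 among 585 probes, while Slc2a1, at 4.67, stays inside a 90th percentile of 4.84 among 755. Pdpk1 A_52_P111390, at -4.58, is far under the 10th percentile of 3.20 of its 90 neighbours. The members of lowest signal, with both RNAs' mean log2 under 7, lay between 0.15 and 1.66 here, where the background offset also draws ratios towards 0.

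**Figure D4:**
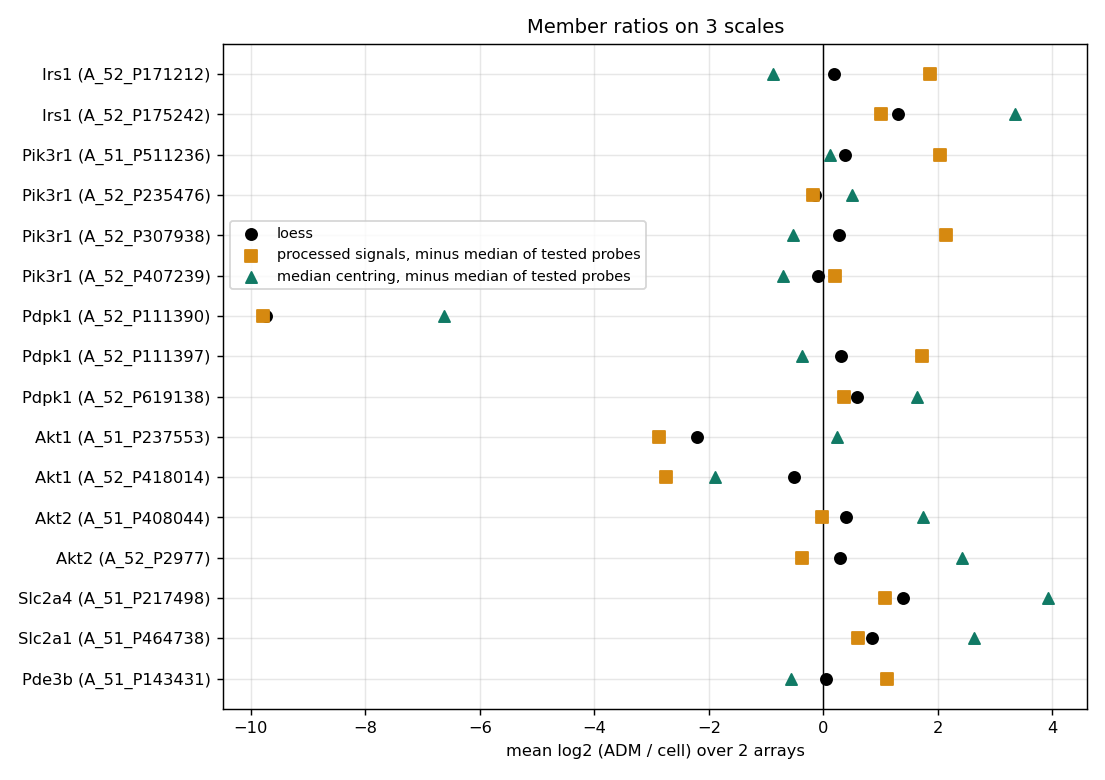
Mean log2 of ADM over cell signal over 2 arrays for the 16 tested member probes, after loess (black circles), from the processed signals (orange squares) and with median centring (green triangles), the latter 2 shown minus the median of all tested probes on their own scale. Slc2a4, Slc2a1 and Irs1 A_52_P175242 are right of 0 and Pdpk1 A_52_P111390 left of 0 for all 3, while Akt1 A_51_P237553 is left of 0 for loess and processed signals and near 0 (0.24) with median centring.

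The choice of processing set how many members were called. With median centring 10 of the 16 member probes were higher and 1 was lower, beside 59.5% and 1.46% of all tested probes, and limma there gave all probes a single variance, so its p-values are not comparable with those after loess. From the processed signals 9 were higher and 3 lower, beside 32% and 14.2% of all tested probes. Of those higher, Irs1 A_52_P171212, Pik3r1 A_51_P511236 and A_52_P307938, Pdpk1 A_52_P111397 and Pde3b A_51_P143431 met the filter through the ADM RNA alone. With median centring that holds for Pik3r1 A_51_P511236 and A_52_P235476 and Pdpk1 A_52_P111397. The filter favours a higher ADM reading for such probes, so their calls add no separate support. Set against the median of tested probes on each scale, Slc2a4 stood at 3.93 with median centring and 1.07 on the processed signals, and Irs1 A_52_P175242 at 3.35 and 1.00. For Slc2a1 the values were 2.63 and 0.60, and for Pdpk1 A_52_P111390 they were -6.62 and -9.80. When spots with an outlying local background were kept, limma called 0 probes in either direction out of 19807 (677 at an unadjusted p under 0.05), the members included (1 of 17 at an unadjusted p under 0.05). None of the 6 calls among the members held with those spots kept, though all 6 kept their sign. Slc2a4 was then at 0.88, Irs1 A_52_P175242 at 0.63, Slc2a1 at 0.35 and Pdpk1 A_52_P619138 at 0.11, with Akt1 A_51_P237553 at -1.16 and Pdpk1 A_52_P111390 at -9.28. Leaving the spots out is a choice taken from an earlier analysis of these data, which made it after seeing its results. With plain subtraction of the local background, the calls of Irs1 A_52_P175242, Slc2a1 and Pdpk1 A_52_P619138 were lost (limma adjusted p = 0.0592, 0.0943 and 0.0693), and Pdpk1 A_52_P111397 passed instead, at 2.02 (limma adjusted p = 0.0421). With robust eBayes the call of Pdpk1 A_52_P619138 was lost (limma adjusted p = 0.0505).

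The remaining genes of the pathway were counted by the brightest probe of each, and each count stands beside the 5.79% of all tested genes that were higher and the 12% that were lower. Of 24 listed receptor-proximal and adaptor genes, 21 were tested with limma, of which 0 were higher (3 at an unadjusted p under 0.05) and 3 lower. The median log2 ratio was 0.02; it was -0.15 on array 1 alone and -0.40 when each gene had to be detected in both RNAs, so it has no settled sign. The 3 were Socs3 (a suppressor of cytokine signalling that also binds the receptor, -1.42 ± 0.33), Ptpn1 (the phosphatase PTP1B, which dephosphorylates the receptor, -1.33 ± 0.22) and Ptpn11 (the phosphatase SHP2, -0.68 ± 0.12), each SD with n = 2. Their limma adjusted p-values were 0.0247, 0.0217 and 0.0418, and with median centring all 3 turned positive, at 1.85, 3.00 and 3.15. The median over all genes tested was 2.34 there, so Socs3 stayed under it while Ptpn1 and Ptpn11 lay above it. Ptpn11 no longer passed on the processed signals (limma adjusted p = 0.0503) or with plain subtraction (limma adjusted p = 0.0723), and its second probe was at -0.05 after loess.

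Of 31 listed genes of PI3-kinase, the PIP3 phosphatases and the AKT pathway, 27 were tested with limma, 0 were higher (3 at an unadjusted p under 0.05) and 1 was lower. That one was Rps6, the ribosomal protein whose phosphorylation is a common readout of the pathway, at -0.80 ± 0.09 (SD, n = 2; limma adjusted p = 0.0318), which also turned positive with median centring, at 3.80, and did not pass on the processed signals (limma adjusted p = 0.106) or with plain subtraction (limma adjusted p = 0.105). The median of the list was 0.11.

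Of 22 listed genes of GLUT4 vesicles and their translocation, 19 were tested, 2 were higher and 1 was lower, with a median of 0.16 (0.09 on array 1 alone and 0.21 on array 2 alone). Sort1, which encodes the sorting receptor sortilin of GLUT4 vesicles, read 8634 and 3361 in the ADM RNA against 33.0 and 54.0 in the cell RNA. Its log2 ratio was 1.68 ± 0.61 (SD, n = 2; limma adjusted p = 0.0332), and its 4 tested probes ranged from 0.60 to 1.68. Scamp3, a carrier membrane protein, was at 0.88 ± 0.24 (SD, n = 2; limma adjusted p = 0.0363), a call lost with plain subtraction (limma adjusted p = 0.0602). Stx4a, the syntaxin at which GLUT4 vesicles dock, was at -0.80 ± 0.18 (SD, n = 2; limma adjusted p = 0.0362), and at 3.36 with median centring; its second probe was at 0.02, and it did not pass on the processed signals (limma adjusted p = 0.0510) or with plain subtraction (limma adjusted p = 0.0626).

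Of 12 other listed glucose transporters, 4 were tested and 1 passed, with a median of 0.25. That median was 0.11 on array 1 alone, 0.47 on array 2 alone and 0.04 with no filter on dim probes. Slc2a8, which encodes GLUT8, was the one higher, at 0.92 ± 0.10 (SD, n = 2; limma adjusted p = 0.0272), with 0.21 for its second probe. Of 18 other cyclic nucleotide phosphodiesterases, 5 were tested and 0 passed in limma (1 at an unadjusted p under 0.05), with a median of 0.01 (-0.04 on array 1 alone and 0.13 on array 2 alone). All of these stand beside a median of 0.04 over all 13186 genes tested, and no list was tested against other genes.

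**Figure D5:**
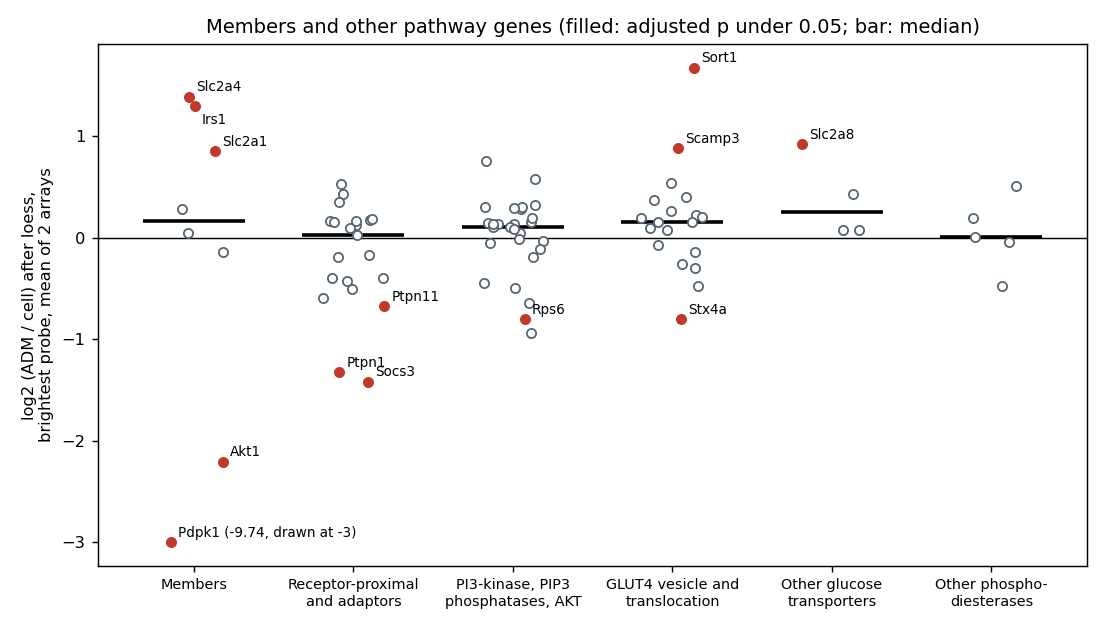
Log2 of ADM over cell signal after loess (mean of 2 arrays) for the brightest probe of each tested gene, for the members and the 5 other lists; filled red points have a limma adjusted p under 0.05, and the bar is the list's median. Passing genes are named; Pdpk1, at -9.74, is drawn at the lower edge, and most genes of the other lists lie near 0.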

How the data were processed

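RNA of 2 pairs of ADM and donor cell samples was measured on 2 Agilent arrays, whose number limits the precision; the labels give no depth. Per the file headers, the authors' spot and background intensities came from Feature Extraction 10.5.1.1, unnormalized, with mm7 coordinates. The processed signals and the deposited log10 ratio (Cy5 over Cy3) were background-subtracted and dye-normalized by that software, per the file headers; its spot flags were deposited as other values beside them. The authors' series table holds the same log10 ratio, with the sign of array 2 changed.

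Outlier-flagged spots and spots with an outlying local background were left out, 2566 and 1942 spots. Background was corrected with normexp (offset 50), and ratios were normalized by loess in limma 3.58.1 (R 4.3.3), with control spots at weight 0. Array 2 was multiplied by -1, which makes each ratio ADM over cell, and spots of a probe were averaged. A probe was tested where the scanner software called at least 50% of its spots well above background in either RNA on both arrays. The mean ratio was tested against 0 (lmFit, eBayes, Benjamini-Hochberg at 0.05) with 1 residual and 2.91 prior degrees of freedom. Differences between probes of a gene (each minus the brightest) were fitted likewise. The limma test alone was run on simulated log2 ratios, with variances drawn from the fitted prior; background correction, loess and the filter were not simulated. With 200 of 18117 probes changed, 3 of 66 changes of log2 size 1 were called (4.55%), and 59 of 67 of size 2. With 2972 probes changed, 901 of 990 of size 1 were called (91%). RefSeq accessions named 22951 probes and the other 18223 kept the file's name. An mm7 annotation was not used here, so exon and UTR positions are not given.

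An at-least fold is given where 1 RNA was not well above background on either array: the bright mean against the dim probe's value or the lowest detected value, whichever was higher, after loess and Aquantile, as a mean over both dye orientations. It takes no account of the spread between arrays or of the processing, so it is no tested minimum. All member probes are named, and from each other list at most the 4 highest and 4 lowest genes that passed. Members and lists were chosen with earlier results of these data known. Alternatives changed the normalization, offset, background, filter, variance prior, scaling, gene summary and replicates.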

Additional observations from a re-analysis of the deposited data

How the results depend on the processing

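With median centring, all probes called were 10773 higher and 265 lower (members 10 and 1); the processed signals gave 5798 higher (members 9), offset 10 gave 1867 and 3063, plain subtraction 462 higher (members 2), a trended prior 1711 higher and scale normalization 1783 higher. Keeping outlying backgrounds gave 0 and 0 in limma (677 of 19807 probes at an unadjusted p under 0.05; members 0 and 0); the cause was not tested. Probes at least 2-fold on a single array were 207 to 469 higher and 1347 to 2063 lower, and members 2 to 2 each way. Signs that turned with median centring: Pik3r1 A_52_P235476 (2.54) and A_52_P407239 (1.34), Akt1 A_51_P237553 (2.28) and A_52_P418014 (0.15), Ptpn1 (3.00), Ptpn11 (3.15), Socs3 (1.85), Rps6 (3.80) and Stx4a (3.36), and the probe differences of Akt1 (-2.13), Akt2 (-0.68) and Pik3r1 (-0.38, -1.20 and -1.02). The values of probes and genes among these stand beside a median of 2.04 over all tested probes. On the processed signals, and equally in the authors' deposited table, the same Pik3r1 probes turned to 0.51 and 0.89, and on the processed signals the Irs1 difference turned to 0.87. Pik3r1 A_52_P235476 still lay under the median of tested probes on the processed signals, at -0.18 relative to it. The Akt2 difference turned to -0.18 with outlying backgrounds kept, and the median of a gene's probes gave 0.11 for Pik3r1 and 0.30 for Pdpk1. Of all values recomputed, 399 kept their direction and call or stayed near their value, 98 moved, 22 changed sign, 30 lost a call and 14 gained one. The test of the mean ratio is itself paired, because each array holds both RNAs of 1 replicate and every ratio is taken within it. Dim cell readings limit Insr, Pde3b, all 4 Pik3r1 probes, Pdpk1 A_52_P111397 and the upstream Irs1 probe; differences that involve a probe unseen in the cell RNA are readings without a test.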
